A study of Mus musculus with 6 samples.

Results

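The subunits of the receptors for glutamate, GABA and glycine were compared between mouse glial cells with an empty vector and the same cells with the H3.3K27M histone. The members were the genes whose symbols name ionotropic glutamate receptor subunits (*Gria*, *Grik*, *Grid* and *Grin*), metabotropic glutamate receptors (*Grm*), GABA-A subunits (*Gabr*), GABA-B subunits (*Gabbr*) and glycine receptor subunits (*Glra* and *Glrb*), whatever their values were. Of the symbols of this form, 53 are reported here, and 52 of them had a probe among the 22911 genes with a named probe. *Grid2ip* has a matching symbol but encodes a scaffold protein of the delta receptors, which left 51 receptor subunits with a probe. Of these, 16 were bright enough to be tested, out of 14898 tested genes in all.

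RNA was hybridized to single-color Agilent mouse arrays, all of them on 1 slide, with 3 WT and 3 IG27 samples. Both groups were OS3 cells, a glial line from newborn C3H/HeN mice (a male C3H brain by the labels) that SV40 had immortalized, so the controls also carried this viral oncogene. WT cells had received the empty vector and IG27 cells a pcDNA3.1(+) plasmid carrying *H3f3a* with the K27M change, in which a lysine of histone H3.3 is replaced by methionine. Clones were obtained by drug selection, and whether each group derives from 1 clone is not given in the sources used here. A difference between clones and an effect of the mutant histone cannot be told apart in this design. Each sample was 1 dish, cultured for 2 days, so the p-values measure only the spread between dishes of a line.

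Glutamate is the main excitatory transmitter of the brain, and GABA and glycine are its main inhibitory transmitters. Their ionotropic receptors are ion channels built from several subunits, some of which are needed in every channel of their class, whereas the metabotropic glutamate and GABA-B receptors signal through G proteins. These receptors are best known from neurons, but astrocytes and oligodendrocyte progenitors also carry members of most of the families.

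Values are levels, that is, log2 of the processed signal minus the 75th percentile of the array, so a level of 0 lies at that percentile. Levels can be compared between arrays for the same probe, not between probes. A gene was tested if the scanner software had marked a probe of it as well above background throughout the WT arrays or throughout the complete IG27 arrays, and the brightest such probe stood for the gene. IG27 replicate 2 has levels but no background flags, because its scanner output is incomplete. The lowest level of any probe well above background was -6.01 to -5.53 on the WT arrays and -5.37 to -5.33 on the 2 complete IG27 arrays.

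The arrays correlated at r = 0.994 to 0.997 within the groups and at 0.902 to 0.905 between them. These correlations were taken over the probes that stood for the tested genes and had a value on every array. In limma with Benjamini-Hochberg adjustment, 10501 of the 14898 tested genes (70.5%) differed at an adjusted p under 0.05, with 30.5% higher and 40% lower in IG27, and the median log2 fold change was -0.07. *H3f3a* differed by -0.26 (SE 0.08, adjusted p = 0.0237), which does not check the labels, since the probe cannot be assumed to read the plasmid. The glial markers *Gfap*, *Sox10*, *Olig1*, *Mbp* and *Cnp* were clearly detected in all complete arrays. Other glial markers were not: *Slc1a3* and *Gpr17* were at background in WT, and *Mobp* was above background on no complete array. The mesenchymal markers *Col1a1*, *Pdgfrb* and *Acta2* were also clearly detected in all complete arrays. Others of that list were not: *Dcn* was at background in WT, *Lum* was above background on no complete array, and *Col1a2* only on part of them. Of 8 neuronal markers, *Map2* rose, *Tubb3* and *Stmn2* fell, 2 were tested and not called, and *Rbfox3*, *Syt1* and *Nefl* were above background on no complete array. The summed signal of the neuronal list, expressed as a level, was 4.16 to 4.35 in WT and 3.37 to 3.51 in IG27. Such a sum follows the brightest probes and is no measure of the list as a whole. *Tubb3*, the brightest in WT, had means of 3.78 in WT and 1.15 in IG27, whereas *Map2* had -6.25 and 1.78. Lower levels can mean fewer cells of a type or less RNA per cell, which bulk samples cannot tell apart, and the part of the neuronal markers in the receptor results was not tested. WT replicates 1 and 3 lay in row 1 of the slide and the other 4 arrays in row 2, so that row and group partly coincide.

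Of the 16 receptor subunits tested, 8 differed between the groups (50%, against 70.5% of all genes tested). At an unadjusted p of at most 0.05 it was the same count, against 72.9% of all genes. IG27 levels were higher for *Grik3*, *Grin3a*, *Gabbr1* and *Glra1*, and lower for *Gria1*, *Grik5*, *Grin3b* and *Grm8*. *Grm8* passed the filter through the WT arrays alone, so the filter favored its direction. *Gria1*, an AMPA receptor subunit, was 7.53-fold lower in IG27, and *Grm8*, a metabotropic receptor at background in IG27, at least 4.41-fold lower, so these genes cannot be ranked against each other. For these 8 genes the 3 WT and 3 IG27 levels did not overlap, while they overlapped for the other 8 (groups without overlap made up 75.7% of all tested genes). The median log2 fold change of the 16 genes was 0.01. Of the called genes, *Gria1*, *Grm8*, *Grin3a*, *Grin3b* and *Grik3* had 1 probe each, so no second probe could check their differences.

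**Figure D1:**
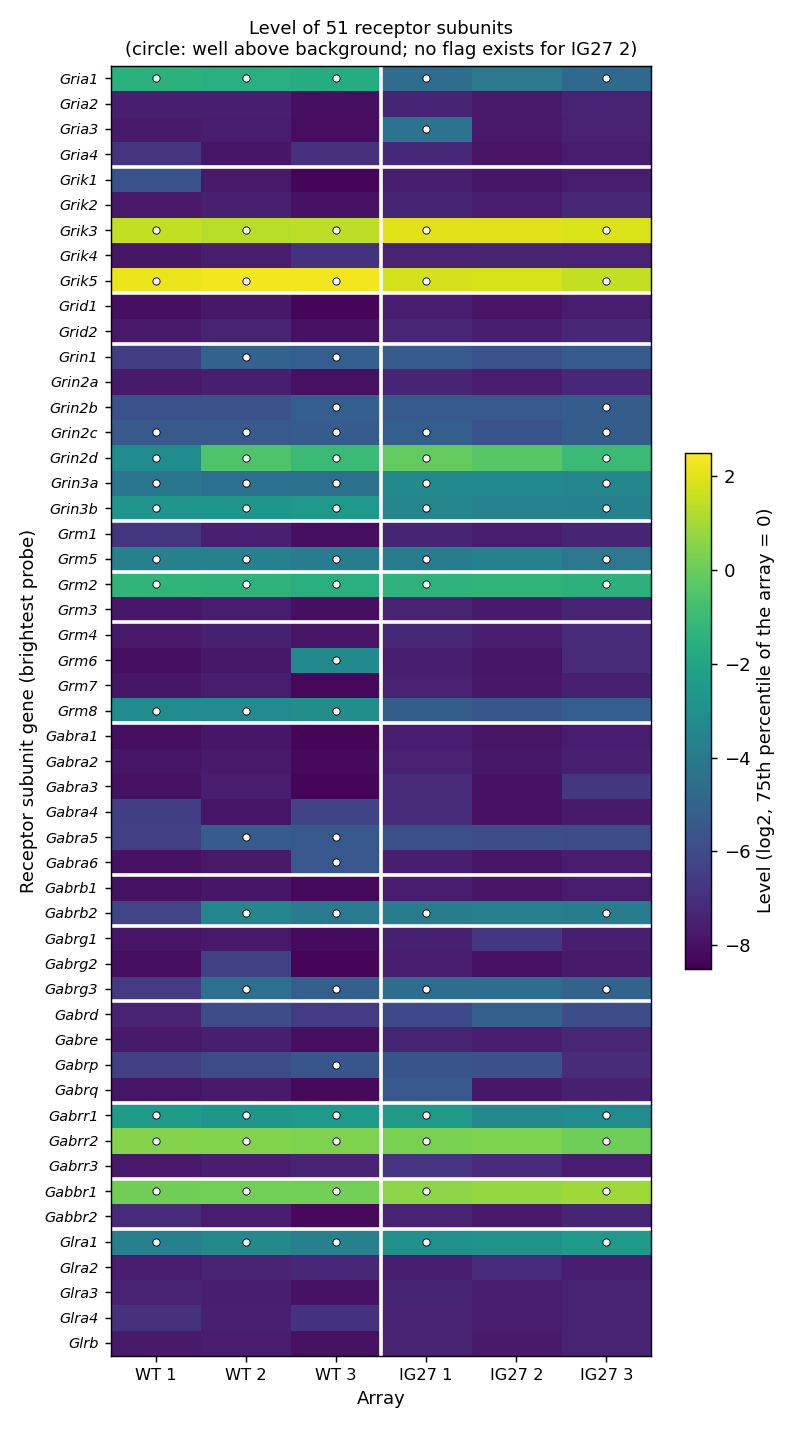
Level of each of the 51 receptor subunits (rows, brightest probe, grouped by family with white lines between the families) on the 6 arrays (columns); color is the level in log2 units with the 75th percentile of the array at 0, and a circle marks a probe well above background, a flag that IG27 replicate 2 lacks. Most rows stay dark on all arrays, *Grm8* carries circles on all 3 WT arrays and on no IG27 array, and color can be compared along a row but not between rows.

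Most of the repertoire was at background. Of the 51 subunits, 13 were well above background on all 5 complete arrays and 28 on none of them, and these 28 had levels between -8.35 and -5.19. Among the 35 subunits not tested were 3 of 4 AMPA, 3 of 5 kainate, both delta, 3 of 7 NMDA, 5 of 8 metabotropic glutamate, 14 of 18 GABA-A, 1 of 2 GABA-B and 4 of 5 glycine receptor subunits. The other 7 of the 35 passed the background flag on 1 or 2 complete arrays. They include *Gria3*, with a level of -4.29 on IG27 array 1 and between -8.12 and -7.47 elsewhere, and *Grm6*, with -3.22 on WT array 3 and between -8.03 and -7.15 elsewhere. *Gria3*, *Grm6* and the other untested genes named with levels were picked for mention after their values were seen.

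**Figure D2:**
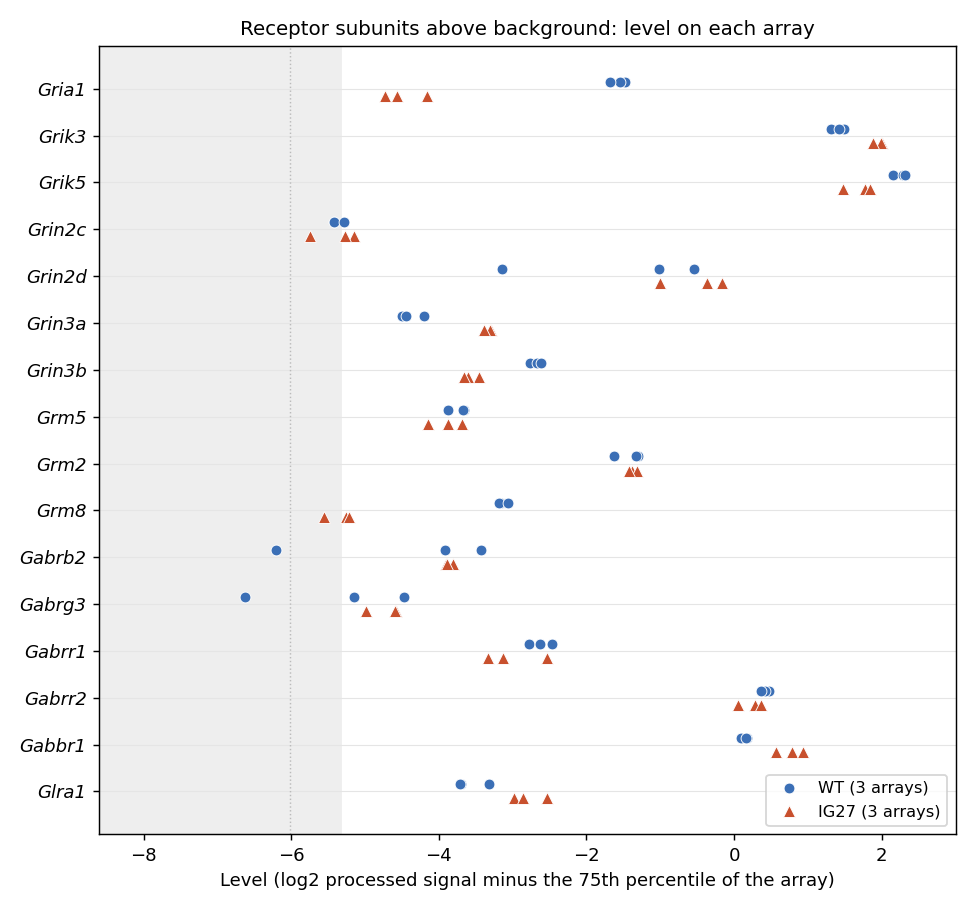
Levels of the 16 receptor subunits tested (rows), with 1 point per array: circles are the 3 WT arrays, triangles the 3 IG27 arrays, and the x axis is the log2 level. The shaded range lies below -5.33, the highest of the per-array lowest levels well above background, and the dotted line marks the lowest of them, -6.01. *Gria1* and *Grm8* show the widest gaps between circles and triangles, and *Grin2d*, *Gabrb2* and *Gabrg3* each have 1 WT circle far below the other WT circles.

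Promoters rich in CG pairs and promoters poor in them usually carry different chromatin marks, so the start regions of the called subunits are described by their CG content. RefSeq promoter windows of the GRCm38.p6 build were found for 36 of the 51 subunits, for 12 of the 16 tested and for 5 of the 8 called, namely *Grik3*, *Grm8*, *Grik5*, *Grin3b* and *Gabbr1*. The 250 bases before the start of 3 of them are shown 5′ to 3′ on the strand of the gene, with every CG pair in capitals. *Grik3* (chr4:125490446-125490695, plus strand) was higher in IG27 and has the most CG pairs of the 12 tested subunits with a window. *Grm8* (chr6:28135147-28135396, minus strand) was lower and is rich in CG at this first of its 3 listed starts but not at the others. *Grin3b* (chr10:79970474-79970723, plus strand) was lower and is poor in CG.
Grik3: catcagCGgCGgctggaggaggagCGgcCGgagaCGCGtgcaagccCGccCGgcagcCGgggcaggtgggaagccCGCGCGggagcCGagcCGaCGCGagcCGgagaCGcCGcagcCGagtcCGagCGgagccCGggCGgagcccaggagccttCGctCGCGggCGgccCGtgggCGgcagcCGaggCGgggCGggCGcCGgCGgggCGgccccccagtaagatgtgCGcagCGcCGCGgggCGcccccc
Grm8: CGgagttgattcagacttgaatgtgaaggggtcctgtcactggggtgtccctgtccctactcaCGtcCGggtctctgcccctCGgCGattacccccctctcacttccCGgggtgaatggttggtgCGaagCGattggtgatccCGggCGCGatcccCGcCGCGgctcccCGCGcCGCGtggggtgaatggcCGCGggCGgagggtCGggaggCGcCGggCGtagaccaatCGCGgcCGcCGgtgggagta
Grin3b: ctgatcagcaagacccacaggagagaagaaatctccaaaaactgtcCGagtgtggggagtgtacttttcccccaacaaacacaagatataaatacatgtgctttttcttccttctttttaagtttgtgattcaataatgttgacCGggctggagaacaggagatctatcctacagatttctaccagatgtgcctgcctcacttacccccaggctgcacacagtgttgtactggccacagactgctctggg
The *Grik3* window held 42 CG pairs and was 82.0% G or C, the *Grm8* window 29 pairs and 68.4% (8 and 2 pairs at its other starts), and the *Grin3b* window 2 pairs and 46.0%. The windows of *Gabbr1* and *Grik5*, not shown, held 16 and 8. Among all 32851 starts in the table the quartiles of the CG count were 2, 6 and 16, so the 2 higher subunits with a window were at or above the upper quartile and the 3 lower ones, at their first listed start, were spread from 2 to 29. The median CG count was 9 over the 12 tested subunits and 10.5 over the 24 untested subunits with a window. The letters TTCAGCACC, which form the left part of the RE1 element bound by the neuronal gene repressor REST, were searched on both strands, and the window of *Grm2* alone held them among the 36 subunits (0.3% of all starts).

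Among the AMPA receptor subunits, which form the fast glutamate-gated channels, *Gria1* (chromosome 11) was the single gene tested. *Gria1* levels were -1.48, -1.55 and -1.68 on WT arrays 1 to 3 and -4.56, -4.16 and -4.73 on IG27 arrays 1 to 3. Every IG27 dish was thus far below every WT dish while still above background on both complete arrays. The log2 fold change was -2.91 (SE 0.15, limma adjusted p = 9.51e-06), or 7.53-fold lower in IG27. *Gria2*, the subunit that limits calcium flow through AMPA channels, was at background in both groups, with levels of -8.07 to -7.38.

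The kainate receptor subunits moved in opposite directions. *Grik3*, which can form channels by itself, had levels of 1.49, 1.32 and 1.42 in WT and 2.01, 1.99 and 1.88 in IG27. The lowest IG27 value exceeded the highest WT value, and the log2 fold change was 0.55 (SE 0.06, adjusted p = 0.000385), or 1.46-fold. *Grik3* lies on chromosome 4, whose 968 tested genes had a median log2 fold change of 0.33, and the part of this chromosome-wide shift in its difference was not tested. *Grik5*, a high-affinity subunit that needs a partner such as the *Grik1*, *Grik2* or *Grik3* product, gave 2.16, 2.29 and 2.32 in WT and 1.78, 1.84 and 1.48 in IG27. All IG27 dishes were below all WT dishes, by -0.55 (SE 0.11, adjusted p = 0.00406), or 1.47-fold. A second *Grik5* probe, with levels of -0.78 to -0.60 in WT and -1.30 to -1.22 in IG27, also differed by -0.55 (adjusted p = 0.000366, over probes). *Grik1*, *Grik2* and *Grik4* were above background on no complete array.

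NMDA receptors are coincidence detectors that need glutamate together with glycine or D-serine, and each channel contains the *Grin1* product. Of the 7 NMDA subunits 4 were tested, and both called genes encode the GluN3 subunits, which bind glycine. *Grin3a* levels were -4.20, -4.50 and -4.44 in WT and -3.29, -3.30 and -3.39 in IG27. The groups were separated, with IG27 higher by 1.05 (SE 0.09, adjusted p = 8.37e-05), or 2.08-fold. *Grin3a* is also on chromosome 4. *Grin3b* went the other way, with -2.76, -2.67 and -2.62 in WT against -3.45, -3.61 and -3.66 in IG27. Its log2 fold change was -0.90 (SE 0.07, adjusted p = 7.22e-05), or 1.86-fold lower.

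*Grin2c* and *Grin2d*, which encode glutamate-binding GluN2 subunits, were not called. *Grin2d* had levels of -3.14, -0.54 and -1.02 in WT and -0.16, -0.36 and -1.01 in IG27. WT replicate 1 stood well below the other WT dishes, and the groups overlapped (log2 fold change 1.06, SE 0.69, adjusted p = 0.213). Without WT replicate 1 the difference was 0.27, and within row 2 of the slide it was 0.03. *Grin2c* gave -5.42, -5.42 and -5.28 in WT and -5.15, -5.75 and -5.27 in IG27, close to background. The order was interleaved, with a difference of -0.02 (SE 0.16, adjusted p = 0.929). The other *Grin2c* probe was above background on no complete array. *Grin1* itself was not tested. It was well above background on WT arrays 2 and 3 but on neither complete IG27 array, although its levels were -6.50, -5.05 and -5.23 in WT and -5.33, -5.74 and -5.29 in IG27, so that the groups overlapped.

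Metabotropic glutamate receptors are divided into group I, coupled to phospholipase C, and groups II and III, which inhibit adenylyl cyclase. *Grm8*, a group III receptor on chromosome 6, was the called member, with levels of -3.16, -3.18 and -3.06 in WT. The IG27 levels were -5.26, -5.55 and -5.22, and the probe was well above background on neither complete IG27 array. All WT dishes lay above all IG27 dishes, and the level was at least 4.41-fold lower in IG27 (measured means -3.13 and -5.34, log2 fold change -2.21, SE 0.10, adjusted p = 5.21e-06). Such a bound sets the WT mean against the lowest signal that still counts as well above background on each IG27 array, or the probe's own level where that is higher.

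*Grm5*, a group I receptor known from young astrocytes, gave -3.66, -3.67 and -3.87 in WT and -3.88, -3.68 and -4.14 in IG27. The dishes of the 2 groups were interleaved, with a difference of -0.16 (SE 0.13, adjusted p = 0.291). This value comes from 1 of 3 *Grm5* probes, designed to a predicted transcript. The other *Grm5* probes, designed to known transcripts, were above background on no complete array, so the expression of *Grm5* rests on this probe alone. *Grm2*, of group II, had levels of -1.30, -1.33 and -1.62 in WT and -1.38, -1.32 and -1.43 in IG27. Its groups overlapped too (0.04, SE 0.10, adjusted p = 0.71), while the 813 tested genes of its chromosome 9 had a median of -0.64. *Grm3*, the other group II gene and a receptor of astrocytes, was at background on all arrays.

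GABA-A receptors are chloride channels that mostly join alpha, beta and gamma subunits. *Gabrg3*, a gamma subunit, was not called, with levels from -6.63 to -4.47 in WT and from -4.99 to -4.58 in IG27 (0.70, SE 0.53, adjusted p = 0.283). WT replicate 1 was the lowest, and without it the difference was 0.09. *Gabra5*, an alpha subunit, was at its brighter probe well above background on WT arrays 2 and 3 only, at levels of -5.29 and -5.46. The same probe gave -6.43 on WT array 1 and -6.00 to -5.82 in IG27. A dimmer *Gabra5* probe, well above background on WT array 3 alone, gave -6.39 to -5.20 in WT. In IG27 it gave -7.61 to -7.33, so its groups did not overlap, though most of these levels were at background.

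No GABA-A alpha subunit was tested, although nearly all such receptors contain one. The beta subunit *Gabrb2* was well above background on 2 of 3 WT arrays and both complete IG27 arrays, with levels of -6.21 to -3.43 in WT and -3.90 to -3.81 in IG27 (0.65, SE 0.70, adjusted p = 0.437). WT replicate 1 was the lowest array, and without it the difference turned to -0.20. These values come from 1 of 3 *Gabrb2* probes. Another was well above background on 2 of 3 WT arrays and neither complete IG27 array, with means of -5.55 in WT and -6.17 in IG27. The remaining probe was above background on no complete array. The rho subunits form GABA-gated channels of their own. *Gabrr2* gave 0.48, 0.42 and 0.36 in WT and 0.28, 0.37 and 0.06 in IG27, with a difference of -0.19 (SE 0.09, adjusted p = 0.113). *Gabrr1*, its neighbor on chromosome 4, gave -2.47, -2.78 and -2.63 in WT and -2.54, -3.34 and -3.13 in IG27. IG27 replicate 1 lay within the WT range, and the difference of -0.38 (SE 0.21) had an adjusted p of 0.158, while without that dish it was -0.61 (adjusted p = 0.00967). The gamma, delta, epsilon, pi and theta subunits other than *Gabrg3* were not tested.

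GABA-B receptors work as pairs of the *Gabbr1* product, which binds GABA, and the *Gabbr2* product, which couples to the G protein. *Gabbr1* levels were 0.10, 0.17 and 0.16 in WT and 0.57, 0.78 and 0.93 in IG27. All IG27 dishes exceeded all WT dishes, by 0.62 (SE 0.10, adjusted p = 0.00155), or 1.53-fold. A second *Gabbr1* probe gave -2.71 to -2.68 in WT and -2.08 to -1.84 in IG27, a difference of 0.71 (adjusted p = 0.000255, over probes). *Gabbr2* was at background on every array, with levels between -8.22 and -7.21.

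**Figure D3:**
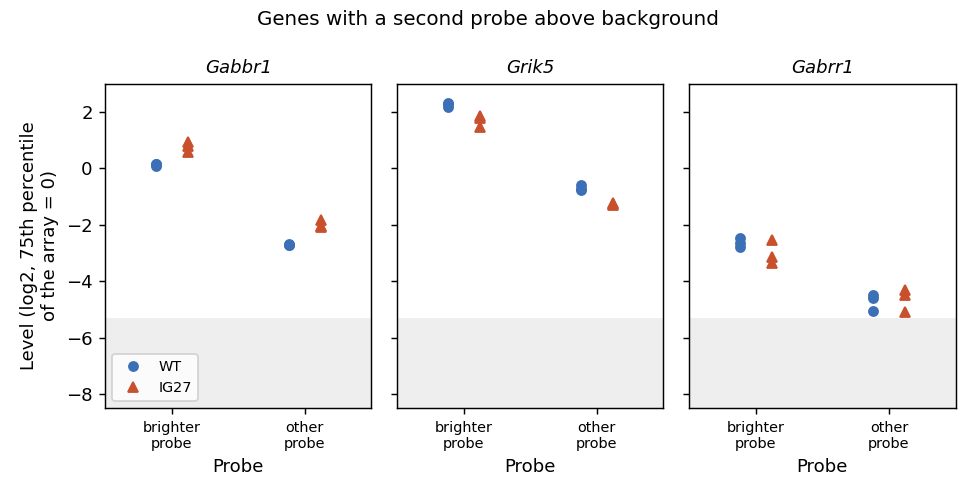
Levels (y axis, log2, 75th percentile of the array at 0) of the brighter and the other probe of 3 receptor subunits with a second probe that passed the background filter, with 3 WT circles and 3 IG27 triangles for each probe; the shaded range lies below -5.33. Both probes of *Grik5* are lower in IG27 and both of *Gabbr1* are higher, whereas for *Gabrr1* the groups overlap at either probe.

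Glycine receptors are chloride channels of alpha subunits, usually joined by the *Glrb* product. *Glra1* levels were -3.70, -3.32 and -3.71 in WT and -2.98, -2.86 and -2.53 in IG27. IG27 was higher without overlap, by 0.79 (SE 0.16, adjusted p = 0.00439), or 1.72-fold. Within row 2 of the slide, which held WT replicate 2 and all IG27 arrays, the difference was 0.53 (adjusted p = 0.0521). The value rests on 1 of 2 probes, as the other was at background, and *Glra2*, *Glra3*, *Glra4* and *Glrb* were at background too.

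Within row 2 of the slide the other 7 called subunits stayed past the threshold, with differences from -2.93 for *Gria1* (adjusted p = 0.000355) to 1.18 for *Grin3a* (adjusted p = 0.000693), though these values rest on 1 WT array. A further alternative corrected the background by normexp on the 5 complete arrays and added an offset of 50 to the intensities. It gave smaller differences for dim genes, -1.92 for *Gria1*, -1.08 for *Grm8*, -0.53 for *Grin3b* and 0.47 for *Grin3a*. That of *Grik5* widened to -0.83, and all 5 were still called. The value for *Grm8* was then smaller than its bound, which holds for the processed signal. The parts of the offset and of the correction in these values were not tested.

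**Figure D4:**
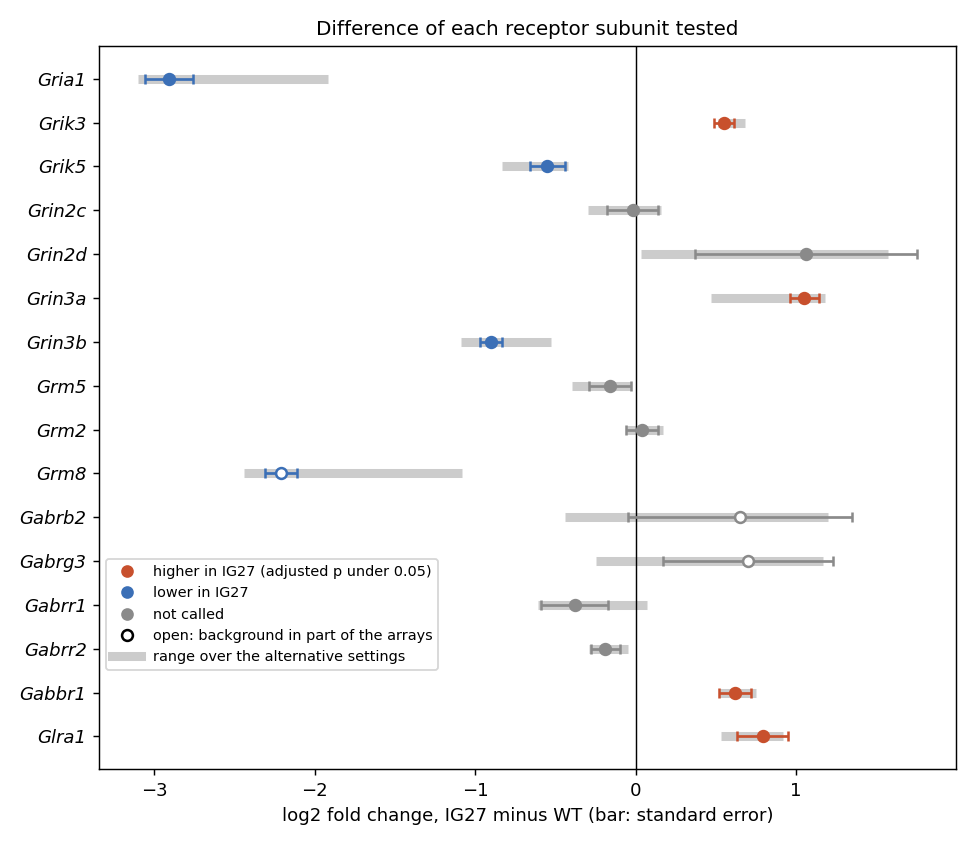
log2 fold change (x axis, IG27 minus WT) of the 16 receptor subunits tested, with the standard error as a thin bar and the range over the alternative processing settings as a thick grey bar; orange points are higher and blue points lower in IG27 at an adjusted p under 0.05, grey points were not called, and the 3 open points (*Grm8*, *Gabrb2* and *Gabrg3*) rest in part on arrays where the probe was not well above background. *Gria1* and *Grm8* lie farthest to the left, none of the 8 called subunits has a range that crosses 0, and the ranges of *Gabrb2*, *Gabrg3*, *Gabrr1*, *Grin2c* and *Grm2* do.

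Genes that act with these receptors were taken from 7 lists of 74 genes: auxiliary subunits, scaffolds, transporters, enzymes and chloride transporters. Of these, 49 were tested and 36 called (73.5%, against 70.5% of all genes tested), 18 in each direction, with a median log2 fold change of 0.05 against -0.07 over all genes. The split moved with the processing, to 22 higher and 15 lower with the percentile over probes above background, 22 and 16 when the probes of each gene were averaged, and 21 and 14 with the dimmest probe. In the list of plasma membrane transporters, 6 of the 7 genes tested were higher and 1 was lower, against 30.5% higher and 40% lower over all genes. Among the higher genes, *Slc1a1*, *Slc1a3* and *Slc7a11* were at background on every WT array. They were tested only because they were above background in IG27, so the filter favored their direction and the count shows no skew of the list.

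The auxiliary subunits of AMPA and kainate receptors set their trafficking and gating, and 5 of the 10 tested were higher and 2 lower in IG27 (30.5% and 40% of all genes). Among the higher ones, *Shisa8* passed the filter through IG27 alone, so the filter favored its direction. *Shisa8*, an AMPA receptor regulator of the Shisa family, was at background in WT, with levels of -8.06, -7.35 and -8.33. It reached -0.51, -0.64 and -0.52 in IG27, at least 37-fold higher (measured means -7.91 and -0.56, adjusted p = 1.57e-06). *Cacng8*, a transmembrane AMPA receptor regulatory protein, rose from -3.99, -3.99 and -4.05 to -1.89, -1.90 and -1.82 (2.14, SE 0.05, adjusted p = 3.5e-07). *Cacng5*, of the same family, fell from 2.79, 2.63 and 2.96 to 1.26, 1.41 and 1.59 (-1.38, SE 0.12, adjusted p = 8.99e-05). Opposite changes were therefore present within this family.

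Of the 14 scaffolds of glutamate receptors tested, 2 were higher and 7 lower (30.5% and 40% of all genes). Among the lower ones, *Dlgap1* passed the filter through WT alone, so the filter favored its direction. *Dlgap1*, which ties the postsynaptic density to Shank proteins, was at -2.81, -2.76 and -2.63 in WT and at background in IG27 (-7.08, -6.34 and -7.30), at least 6.12-fold lower (measured means -2.73 and -6.91, adjusted p = 1.57e-05). *Dlg3*, a membrane-associated guanylate kinase that binds NMDA receptors, differed by -1.48 (SE 0.06, adjusted p = 4.08e-06), and *Homer3*, which binds group I metabotropic receptors, by -1.14 (SE 0.06, adjusted p = 7.3e-06). *Dlg3* lies on the X chromosome, whose tested genes had a median of -0.59, and *Homer3* on chromosome 8, with a median of -0.67. The part of these chromosome-wide shifts in both differences was not tested. *Grid2ip*, the scaffold whose symbol matched the rule, had levels of -3.74, -2.30 and -2.87 in WT and -2.11, -2.19 and -2.34 in IG27 and was not called (0.76, SE 0.35, adjusted p = 0.0953).

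Of the 11 scaffolds and partners of GABA and glycine receptors tested, 4 were higher and 5 lower (30.5% and 40% of all genes). Among the higher ones, *Kctd12* passed the filter through IG27 alone, so the filter favored its direction. *Gphn*, which encodes gephyrin, the scaffold of inhibitory synapses, rose from -3.19, -3.42 and -3.32 to 1.86 in each IG27 dish (5.17, SE 0.07, adjusted p = 8.88e-08). The 1 probe of this gene thus showed a gap of 36-fold with almost no spread within either group. *Kctd12*, an auxiliary subunit of GABA-B receptors, was above background in 1 of 3 WT dishes, with levels of -7.90, -4.72 and -8.27, and at -1.35, -1.19 and -1.29 in IG27 (adjusted p = 0.00171). The size of this difference depends on WT levels below background, and within row 2 of the slide, against WT replicate 2 alone, in which the probe was above background, it was 3.44. *Lhfpl4*, which helps to place GABA-A receptors at synapses, fell from 3.75, 3.70 and 3.74 to 1.49, 1.5 and 1.45 (-2.25, SE 0.04, adjusted p = 2.27e-07).

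Transporters clear the transmitters from the space around the cells or exchange glutamate, and they set how much of it the receptors meet. *Slc1a3*, the glial glutamate transporter GLAST, was at background in WT, with -7.93, -7.74 and -8.21, and at -1.45, -1.41 and -1.36 in IG27. It was at least 20.6-fold higher (measured means -7.96 and -1.41, adjusted p = 1.79e-07), whereas *Slc1a2*, the other main astrocyte glutamate transporter, was lower (-1.03, SE 0.09, adjusted p = 8.32e-05) and was the 1 transporter of the list that fell. *Slc7a11*, the cystine-glutamate exchanger, was also at background in WT and at least 3.22-fold higher in IG27 (measured means -7.60 and -4.08, adjusted p = 0.000117). *Slc6a9*, a glycine transporter, rose from 2.32, 2.44 and 2.38 to 4.59, 4.58 and 4.52 (2.18, SE 0.05, adjusted p = 4.37e-07), and it too lies on chromosome 4.

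The bounds among these genes hold for the processed signal. With normexp and its added offset of 50, the log2 differences were 3.72 for *Shisa8*, 2.93 for *Slc1a3*, 0.95 for *Slc7a11* and -1.51 for *Dlgap1*. Each was smaller than its bound, and all 4 were still called. The part of the offset was not tested.

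Among the remaining lists, neither of the 2 vesicular transporters tested was called. Of the 3 enzymes tested, *Srr*, which makes D-serine, fell by 1.25 (SE 0.06, adjusted p = 9.14e-06) and *Abat*, which breaks down GABA, by 0.50 (SE 0.08, adjusted p = 0.00161) on the log2 scale, although with the mean of its 2 probes *Abat* was not called (-0.10, adjusted p = 0.554). *Gad1* and *Gad2*, which make GABA, were not tested. Chloride transport sets whether GABA-A and glycine channels excite or inhibit a cell. *Slc12a5*, which exports chloride, fell from 0.84, 0.90 and 0.79 to -1.05, -1.07 and -1.01 (-1.89, SE 0.05, adjusted p = 6.92e-07), and *Slc12a2*, which imports it, rose by 0.28 (SE 0.08, adjusted p = 0.0185) from levels of 1.77 to 2.03 in WT to 2.15 to 2.24 in IG27, a call lost without IG27 replicate 1 (adjusted p = 0.0581) or IG27 replicate 3 (adjusted p = 0.0621).

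**Figure D5:**
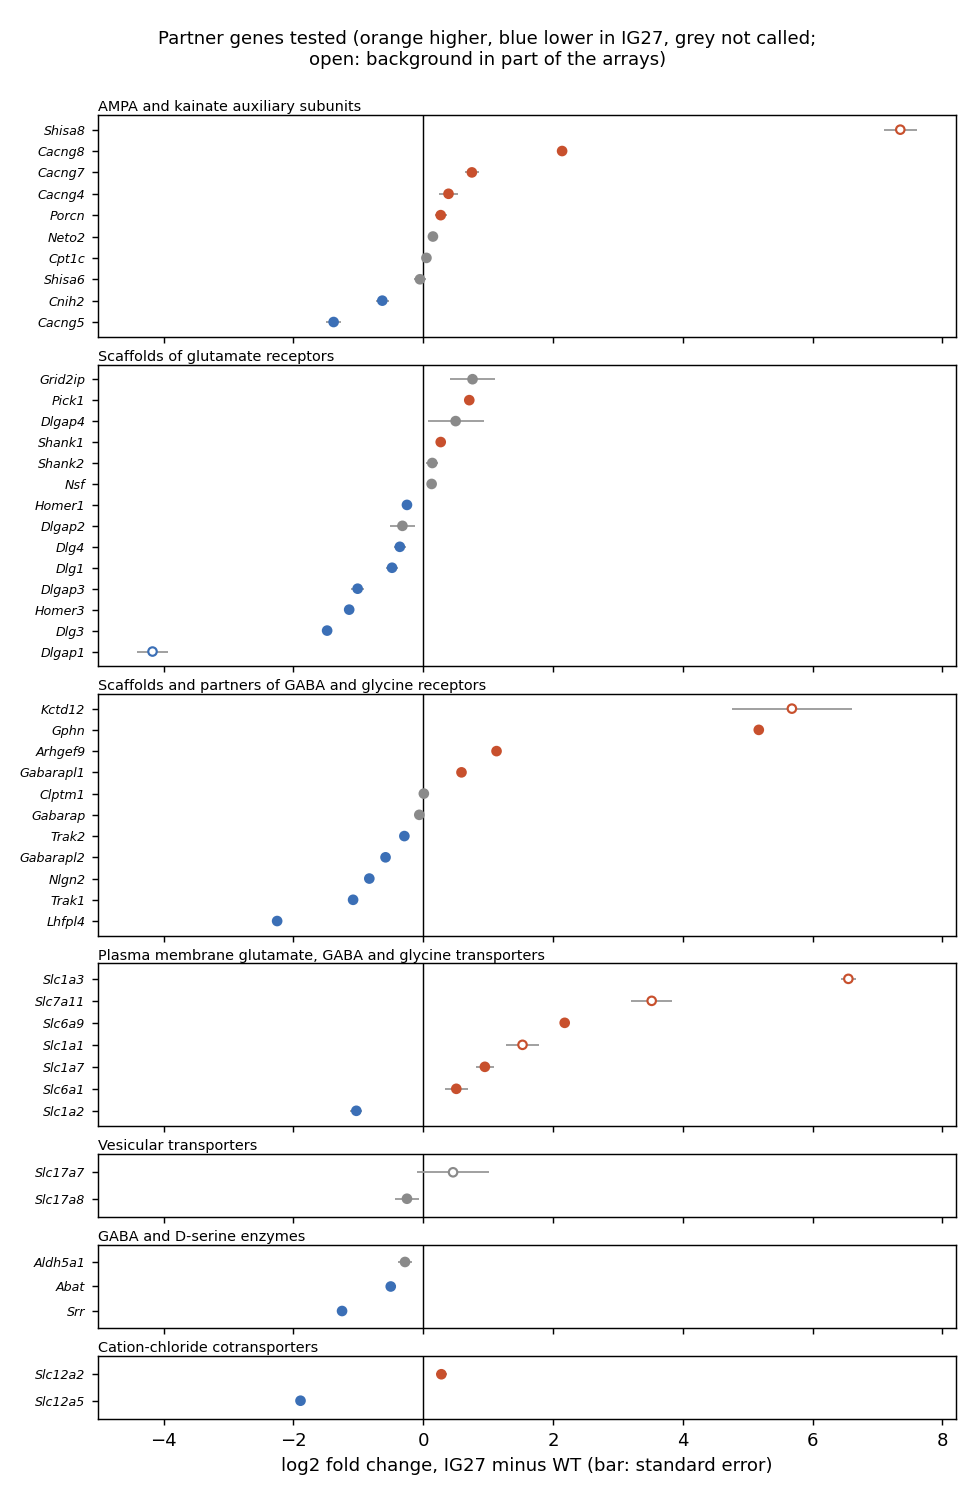
log2 fold change (x axis, IG27 minus WT, with the standard error as a bar) of the 49 partner genes tested, in a panel for each of the 7 lists and in order of size; orange points are higher and blue points lower in IG27 at an adjusted p under 0.05, and grey points were not called. The 7 open points, among them *Shisa8*, *Slc1a3*, *Kctd12* and *Dlgap1*, rest in part on arrays where the probe was not well above background, so their distance from 0 is not a measured size; of the filled points *Gphn* lies farthest to the right, and 6 of the 7 plasma membrane transporters are to the right of 0.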

How the data were processed

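RNA of 3 WT and 3 IG27 dishes was measured on single-color Agilent arrays. The authors read the spots with Agilent Feature Extraction (9.1 per the labels, 10.7.3.1 per the file headers), and the deposited processed signal is an intensity on a linear scale. Of the 62976 spots, the scanner output of IG27 replicate 2 holds 285, so its values came from the deposited value table, which equaled the scanner output in all 56305 single-spot probes of each complete array (relative tolerance 1e-04). In that table the columns of WT replicates 2 and 3 are exchanged, and the scanner labels were used. The number of arrays limits the precision.

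On each complete array 107 to 210 spots were flagged as outliers and removed. From the deposited intensity, log2 values minus the 75th percentile of each array were computed, and probes were named through their RefSeq accessions with the GRCm38.p6 table. Differences were tested with limma (version 3.58.1 under R 4.3.3) by a two-sided moderated test without a block over all 14898 genes, p-values were adjusted by Benjamini and Hochberg's method, and 0.05 was the threshold. The code was tested on simulated data. An adjusted p over probes was computed in the same way with all probes that passed the filter. 1 gene of the receptor families is not reported here. The members and lists were chosen with earlier results of these data known. Levels on every array are given for receptor genes called with a log2 difference of at least 1 or only a bound, and for those above background on all complete arrays. Of the other lists, up to 3 called genes with the largest differences are named, and *Slc1a2*, *Gad1*, *Gad2* and *Grid2ip* were named in addition, after their values were seen. Alternatives changed the arrays, scaling, background correction, filter, probe choice, variance prior, threshold and blocks, and left out each array in turn.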

Additional observations from a re-analysis of the deposited data

How the results depend on the processing

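Over the 20 alternatives the count of called receptor subunits ran from 7 to 10, against 8, and that of partner genes from 30 to 38, against 36. All 8 subunits kept their call and direction in every alternative except the slide row as a block (*Glra1* lost, 7 called) and the demand for a signal above background in both groups, which leaves *Grm8* untested (7 called, of which 3 were lower in place of 4). Leaving out each array in turn gave 8 to 9 called subunits, 4 of them higher and 4 to 5 lower. Some genes that were not called or not tested were called in other settings: *Grm5* with quantile normalization (-0.40, adjusted p = 0.0211) and with normexp (-0.19, adjusted p = 0.0483), *Gabrr2* with normexp (-0.29, adjusted p = 0.0145), *Gabra5* without WT replicate 1 (-0.53, adjusted p = 0.0033), and *Grid2ip*, the scaffold, without WT replicate 2 (1.09, adjusted p = 0.0155); the cause was not tested. The sign turned, with no call in either direction, for *Gabrb2* (-0.44 with the slide row), *Gabrg3* (-0.25 with the slide row), *Gabrr1* (0.07 with the dimmest probe), *Grin2c* (0.16 on the 5 complete arrays, 0.11 with the percentile over probes above background, 0.05 with normexp, 0.03 with the slide row) and *Grm2* (-0.06 with quantile normalization, -0.05 with the slide row). Over the fits that left out 1 array, *Gabrb2* ran from -0.20 to 1.2, *Grin2c* from -0.14 to 0.16 and *Grm2* from -0.06 to 0.10. *Abat* was called lower with its brightest probe and turned to 0.29 with the dimmest (adjusted p = 0.314). Taking the 75th percentile over probes above background moved the median of all genes from -0.07 to 0.06 and the share of higher calls among all calls from 43.3% to 53.1%, but called the same number of subunits. The bound for *Grm8* ran from 4.04 to 5.18-fold over the 10 alternatives it was computed for (scaling, outlier spots and arrays left out), and was not computed with normexp, where the log2 difference was -1.08.

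WT and IG27 dishes of the same number deviated from their group means with correlations of 0.0118, 0.0395 and 0.0763. Between dishes of different numbers the correlations ran from -0.094 to 0.059. Values this small do not decide whether the samples were paired, and the main fit used no replicate block. With the replicate block, 9 receptor subunits were called, *Gabrr1* being added (-0.38, adjusted p = 0.0475), with 34 partner genes and 10309 genes in all; with the numbers of WT replicates 2 and 3 exchanged, an alternative chosen after seeing the data, 8 subunits and 10051 genes were called. Signals near background limit what can be said of the 35 untested subunits, of which *Gabra5* alone was called in any alternative.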

Other observations

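The lists of cell type markers, taken apart from the receptors, gave values that belong to no comparison above, and their counts stand against 30.5% higher and 40% lower over all genes tested. In 6 markers of oligodendrocyte progenitors, all tested, 4 were higher in IG27 and 1 lower, among them *Gpr17*, a receptor of late progenitors, which was at least 80.1-fold higher. In 8 astrocyte markers, 7 tested, 3 were higher and 3 lower, with *S100b* at 4.93 and *Gfap* at -1.07 on the log2 scale (*Slc1a2* and *Slc1a3* of this list are also in the transporter list). Of 6 oligodendrocyte markers, 5 were tested, with 1 higher and 2 lower, and of 6 microglial markers 5 were tested, with 3 higher and 2 lower. Of 5 endothelial markers 2 were tested, with 1 higher and 1 lower. *Kdr*, a receptor of vascular growth factor, was at background in WT and at least 135-fold higher in IG27. *Pecam1* was lower in IG27 (-0.27, SE 0.08, limma adjusted p = 0.0253), and *Cdh5*, *Cldn5* and *Tek* were at background in both groups. Of 6 mesenchymal markers 4 were tested, with 1 higher and 3 lower. Among the higher genes of these lists, *Gpr17*, *Slc1a3*, *Aif1*, *Kdr* and *Dcn* passed the filter through IG27 alone. The filter thus favored their direction in the counts. The part of the marker genes in the receptor results was not tested.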
